A study of Mus musculus with 80 samples.

Results

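The genes described here are 37 protein-coding genes of fatty acid oxidation, together with well-known targets of the nuclear receptor PPARα, out of 21911 protein-coding genes in the mouse annotation GENCODE M21 (genome build mm10). They were chosen as a named list and not by a measured value, but with earlier results of these data known. Each gene was taken with 5 kb upstream and 1 kb downstream. For each liver it was recorded whether an interval of RXR-DNA binding overlapped that window and whether the summit, the highest point of the interval, lay in an exon of the gene. The question was where RXR was called at these genes with and without pioglitazone (Pio), and with and without PPARγ in the liver. The other 21874 protein-coding genes served as the background.

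RXR-DNA binding was measured by chromatin immunoprecipitation followed by sequencing (ChIP-Seq) in 40 livers, 5 in each of 8 groups. The animals were male mice, 5 months old, fed their diets for 12 weeks. The KO mice carried loxP-flanked PPARγ alleles and Cre driven by the albumin promoter, which is active in hepatocytes, so that PPARγ was still present in cell types without Cre. The WT mice were C57BL6/J and not floxed animals without Cre. Both genotypes received control diet (Control), control diet with Pio (Pio), high-fat diet (HFD) or high-fat diet with Pio (HFD-Pio). The antibody recognised RXRα, RXRβ and RXRγ. For the KO Pio, KO HFD and KO HFD-Pio livers, 15 samples in all, the antibody was missing from the labels and only the titles named RXR, and they were taken as RXR ChIP. Livers came from separate mice, and nothing in the labels tied a liver of one group to a liver of another. Each of the 4 Pio comparisons used its own 10 livers, whereas the comparisons of diets and of genotypes used the same livers again.

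Fatty acids are first activated to acyl-CoA by synthetases and enter mitochondria through the carnitine shuttle. Acyl-CoA dehydrogenases begin each round of β-oxidation and hand their electrons to the electron transfer flavoprotein. A hydratase, a hydroxyacyl-CoA dehydrogenase and a thiolase then shorten the chain. Peroxisomes run a related pathway for very long and branched chains, and auxiliary isomerases and reductases prepare unsaturated chains. RXR is the obligate partner of PPARα and PPARγ, and the heterodimers bind DR1 elements, a pair of AGGTCA-like repeats with a single base between them. PPARα is the main regulator of these genes in hepatocytes, and Pio is a PPARγ agonist that is used as an insulin sensitiser.

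The libraries differed in ways that touch every comparison. WT libraries held 2.04 to 4.26 Mtags (1 Mtag being 1e+06 sequenced tags kept by the peak caller) and KO libraries 0.628 to 1.06 Mtags. The threshold for a peak was a p of 0.001 in WT libraries, but a q of 0.05 in KO libraries. Genotype, depth and cutoff therefore cannot be told apart. WT libraries held 610 to 33911 peaks and KO libraries 7648 to 30444. In 6 WT libraries the fragment length estimated by the peak caller was 45 to 48 bp, against 119 to 292 bp in the other 34, and all 6 were Pio-treated (WT Pio livers 2, 3 and 5, and WT HFD-Pio livers 1, 4 and 5). Of 8 hepatocyte markers, 0 had an exonic peak in any treated WT liver, up to 3 had one in WT Control, and Ttr alone had one in all 20 KO livers. Exonic peaks lay on 5 to 7 of 8 neural markers in KO livers and on 0 to 2 in treated WT livers. They lay on up to 4 of 8 intestinal markers (Vil1 and Krt20 most often) in treated WT livers, on 0 to 3 smooth muscle markers in treated WT and 2 to 6 in KO livers, and on adipose markers in a single KO HFD-Pio liver. The part of these markers and of the fragment estimate in the results was not tested beyond the values given with and without the 6 libraries.

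Of the 37 genes, 30 had an interval in at least 1 of the 40 libraries (81.08%, against 81.8% of other genes). For 28 the summit lay in an exon of the gene in at least 1 library (75.68%, against 55.5%), and for 21 it lay outside every annotated exon (56.76%, against 68.9%). Exons made up 12.49% of the bases of these windows and 8.07% of those of other genes. There were 7 genes with no interval at all: Ehhadh, Acaa1b, Acot2, Cyp4a10, Pdk4, Angptl4 and Fgf21. Eci1 and Decr2 had intervals in their windows, but no summit in their exons.

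In WT livers the genes that carried an exonic peak were found with Pio only. In WT Control the number was 0 in 5 of 5 livers, and in WT Pio it was 7, 10, 15, 1 and 9 in livers 1 to 5 (8.4 ± 5.08, SD, n = 5). In WT HFD it was again 0 in 5 of 5 livers, and in WT HFD-Pio it was 15, 0, 3, 12 and 6 (7.2 ± 6.22, SD, n = 5). On control diet the treated livers lay above all untreated livers, while on HFD 1 of 5 treated livers also had none. For WT Pio liver 4 this rested on 1 gene, Hadha, called with a −log10 q of 0.0183. That call passed the p cutoff of WT libraries, but would miss the q cutoff of KO libraries. Without it, WT Pio liver 4 would have none, like the untreated livers. On average 22.7% of the 37 genes carried an exonic peak in WT Pio and 19.46% in WT HFD-Pio. Of other genes, 8.03% and 6.12% did so in these treated groups, and 0.406% and 0.122% in untreated WT livers on control diet and HFD. In whole livers, signal in more cells and more signal per cell cannot be told apart. Whether the exonic peaks reflect RXR-DNA binding was not tested.

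KO livers had exonic peaks at these genes with and without Pio. The numbers were 3, 5, 7, 1 and 4 in KO Control (4 ± 2.24, SD, n = 5) and 3, 5, 10, 7 and 4 in KO Pio (5.8 ± 2.78). They were 8, 4, 6, 4 and 0 in KO HFD (4.4 ± 2.97) and 6, 7, 6, 6 and 4 in KO HFD-Pio (5.8 ± 1.10). Treated and untreated livers overlapped in both comparisons. In the same order, 10.81%, 15.68%, 11.89% and 15.68% of the 37 genes carried an exonic peak on average, below the 22.0%, 27.2%, 23.5% and 25.5% of other genes. The differences of 1.8 and 1.4 genes per liver were smaller than the largest SD of the groups they compare. HFD moved the mean by 0 in WT livers without Pio, by -1.2 in WT livers on Pio, by 0.4 in KO livers without Pio and by 0 in KO livers on Pio.

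**Figure D1:**
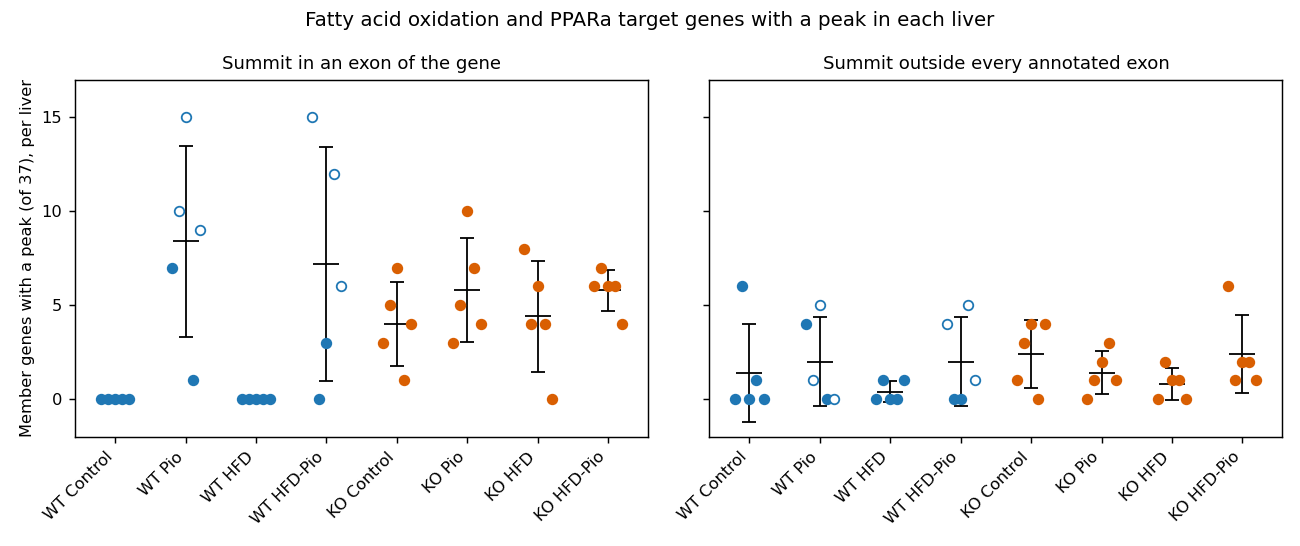
Number of the 37 genes with a peak in each of the 40 livers, by group; the left panel counts summits in exons of the gene and the right panel summits outside every annotated exon. Each point is a liver, open points are the 6 libraries with a fragment estimate under 50 bp, and bars give mean ± SD (n = 5); untreated WT livers sit at 0 in the left panel, and the open points lie between 6 and 15.

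An exonic peak in at least 3 of 5 livers was found at 0 of the 37 genes in WT Control (beside 0.0549% of other genes), 8 in WT Pio (21.62%, beside 6.35%), 0 in WT HFD (beside 0.0549%) and 6 in WT HFD-Pio (16.22%, beside 3.88%). It was found at 3 in KO Control (8.108%, beside 21.1%), 6 in KO Pio (16.22%, beside 26.1%), 5 in KO HFD (13.51%, beside 22.8%) and 4 in KO HFD-Pio (10.81%, beside 24.3%).

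A gene was counted as gained when at least 3 of 5 treated livers and 0 of 5 untreated livers had an exonic peak. In WT Pio against WT Control, 8 of 37 genes were gained (21.62%), beside 6.16% of other genes: Hadha, Hadhb, Echs1, Ech1, Etfa, Etfb, Etfdh and Hsd17b4. In WT HFD-Pio against WT HFD, 6 were gained (16.22%), beside 3.81% of other genes: Hadha, Hadhb, Echs1, Ech1, Etfb and Acsl5. Without WT HFD-Pio liver 1, 4 or 5 this count fell to 2 (Ech1 and Etfb), and with peaks kept only from a −log10 q of 5 upward, 4 genes were gained on control diet and 1 on HFD. In KO livers 0 were gained on control diet and 0 on HFD, where 0.933% and 0.384% of other genes were gained. None of the 37 was lost in any of these 4 comparisons (0% of other genes in both WT comparisons, 0.096% in KO on control diet and 0.251% in KO on HFD). Outside exons, 0 were gained in each of the 4, beside 1.01%, 2.37%, 0.594% and 0.512% of other genes. Where exons of other genes and pseudogenes were included, 2 genes gained an intronic summit in WT Pio against WT Control (5.405%, beside 1.83% of other genes), Hsd17b4 and Acadl, both at a processed pseudogene inside an intron. In WT on HFD, KO on control diet and KO on HFD 0 did (beside 3.28%, 0.521% and 0.434%), and 0 gained an upstream summit in the 4 comparisons (beside 1.84%, 1.19%, 0.215% and 0.128%).

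**Figure D2:**
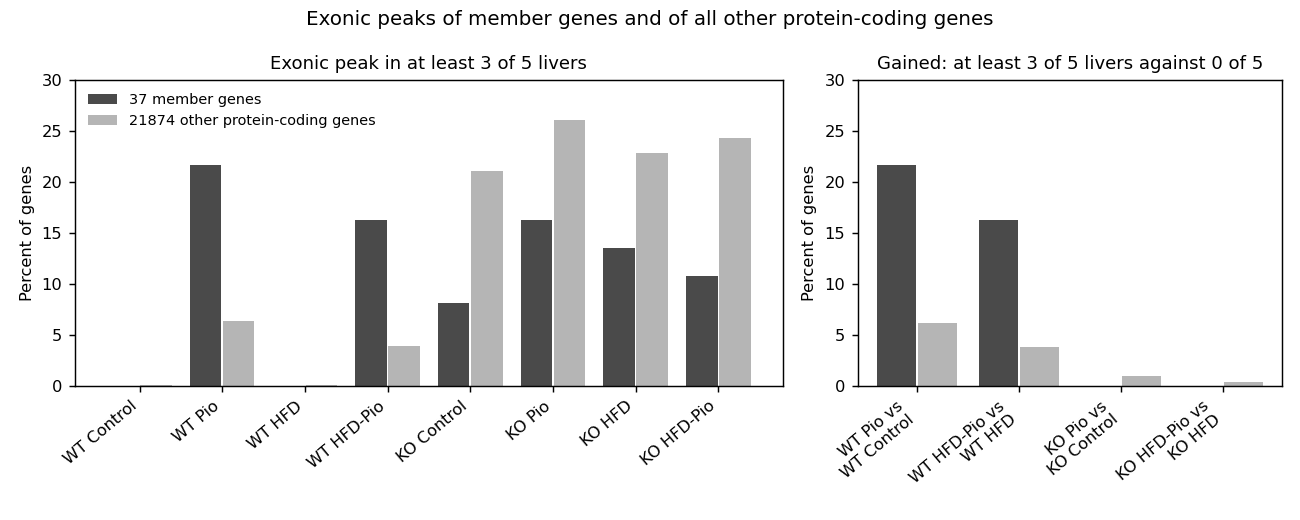
Percent of the 37 genes (dark bars) and of the other 21874 protein-coding genes (light bars) with an exonic peak in at least 3 of 5 livers of each group (left), and gained in each Pio comparison (right). The 37 genes stand at 21.62% in WT Pio and 16.22% in WT HFD-Pio, above other genes, and below other genes in all 4 KO groups.

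With 5 livers against 5, Fisher's exact test (two-sided, adjusted by Benjamini-Hochberg over all genes tested) passed 0 genes in each of the 4 Pio comparisons. The smallest p the design allows is 0.00794, and at an unadjusted p under 0.05 it passed 905 of 4422 genes in WT on control diet, 294 of 3726 in WT on HFD, 102 of 9590 in KO on control diet and 45 of 9625 in KO on HFD. Of the list, 17, 17, 17 and 15 genes could be tested in these comparisons. Of those, 6, 2, 0 and 0 reached that p, all higher with Pio, beside 20.4%, 7.87%, 1.02% and 0.375% of the other genes tested. A limma model of fold enrichment (ChIP tags at the summit divided by those that the input predicts there) passed 0 of 10 genes in WT on control diet, 0 of 1948 in KO on control diet and 0 of 2122 in KO on HFD (105 of the 1948 and 95 of the 2122 at an unadjusted p under 0.05), and none of the 37 had an exonic peak in all 10 livers of a comparison, so none entered it. With the diets pooled (10 treated against 10 untreated livers, a comparison added after the data had been seen), the test passed 686 of 5556 genes in WT livers, all higher with Pio. It passed 5 of the 21 genes of the list that could be tested, beside 12.3% of other genes. Hadha, Ech1 and Etfb (8 livers against 0) had an adjusted p of 0.0110 by Fisher's exact test, and Echs1 and Hadhb (7 against 0) one of 0.0251. Etfa (6 against 0, adjusted p = 0.0614 by Fisher's exact test), Etfdh and Hsd17b4 (5 against 0, adjusted p = 0.140) did not pass. In KO livers the same test passed 0 of 10710 genes (94 at an unadjusted p under 0.05). Whether the change with Pio differs between genotypes was not tested.

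Those calls rested largely on the 6 libraries with the short fragment estimate. Hadha, Hadhb, Echs1, Ech1 and Etfb had an exonic peak in 6 of 6 of them, Etfa and Etfdh in 5, and Hsd17b4, Acsl5 and Acadvl in 4. In the 4 other treated WT livers Hadha, Ech1 and Etfb had one in 2, Hadhb, Echs1, Etfa and Hsd17b4 in 1, and Etfdh, Acsl5 and Acadvl in 0. Between 6 and 15 of the 37 genes carried an exonic peak in each of the 6 libraries, against 0 to 7 in the other 4. Other genes carried one in 10.1% and 2.54% of cases. With only the 4 longer-fragment livers against the 10 untreated livers, Fisher's exact test passed 64 of 1898 genes, and 0 of the 8 members tested, beside 3.39% of other genes.

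The electron transfer flavoprotein showed the pattern at both of its subunits. Etfa (chr9:55454508-55512243, minus strand) encodes the α subunit. Its strongest exonic fold enrichment was 2.80, 8.42, 9.11 and 6.57 in WT Pio livers 1, 2, 3 and 5, and 14.1 and 5.98 in WT HFD-Pio livers 1 and 4. No exonic peak was called at Etfa in the 10 untreated WT or the 20 KO livers. The 23 summits lay in 7 of 12 exons, all in coding sequence, with pileups of 2 to 14 tags.

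Etfb (chr7:43444083-43457800, plus strand) encodes the β subunit. The values were 4.56, 13.1, 8.20 and 6.57 in WT Pio livers 1, 2, 3 and 5, and 7.43, 4.23, 4.48 and 4.58 in WT HFD-Pio livers 1, 3, 4 and 5. Outside treated WT livers it was called in a single liver, KO Pio liver 4, at 3.71. Summits fell in each of its 6 exons in WT livers, and exon 2 carried one in 8 of 8 livers. Etfdh (chr3:79603788-79629500, minus strand), the dehydrogenase that passes the electrons on to ubiquinone, was lower and less frequent, at 3.74, 6.38 and 3.75 in WT Pio livers 2, 3 and 5, at 4.69 and 4.76 in WT HFD-Pio livers 1 and 4, and at 3.73 in KO Control liver 3.

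The intervals at these genes were narrow, and several ended within a few bases of an exon boundary. The boundary sequences of 4 such exons are shown from the reference genome (mm10) in the direction of the gene, with 15 intron bases in lower case and the first 15 exon bases in capitals.
Etfa exon 4 (83 bp) at chr9:55495630-55495659, minus strand: gtgtttaattctcagAGGAACTCACACCAT
Etfa exon 9 (83 bp) at chr9:55482341-55482370, minus strand: cttcctccctttcagTTGGTGCTTCCCGAG
Etfb exon 4 (63 bp) at chr7:43454503-43454532, plus strand: ctctctccctgctagGCTATTGATGATGAC
Hadhb exon 7 (88 bp) at chr5:30172611-30172640, plus strand: cactattccttgaagGCTGCCCTGGGAGCT
At Etfa exon 4, the 4 intervals of 4 livers all lay inside the exon, with a median width of 56 bp, and came as near as 3 bp to the boundary shown. At Etfa exon 9, 3 of 4 intervals lay inside (median width 69.5 bp, 1 bp from the boundary). At Etfb exon 4, 3 of 4 lay inside (51.5 bp, 2 bp from the boundary), and at Hadhb exon 7, 4 of 4 (47.5 bp, 10 bp). Each boundary carries the AG with which introns end. These distances are those of the nearest interval, and the 4 exons are short. At the recurrent exonic sites called in WT livers only, the nearest distance to this boundary ran from 0 bp (Acsl5 exon 20) to 74 bp (Hadha exon 19).

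**Figure D3:**
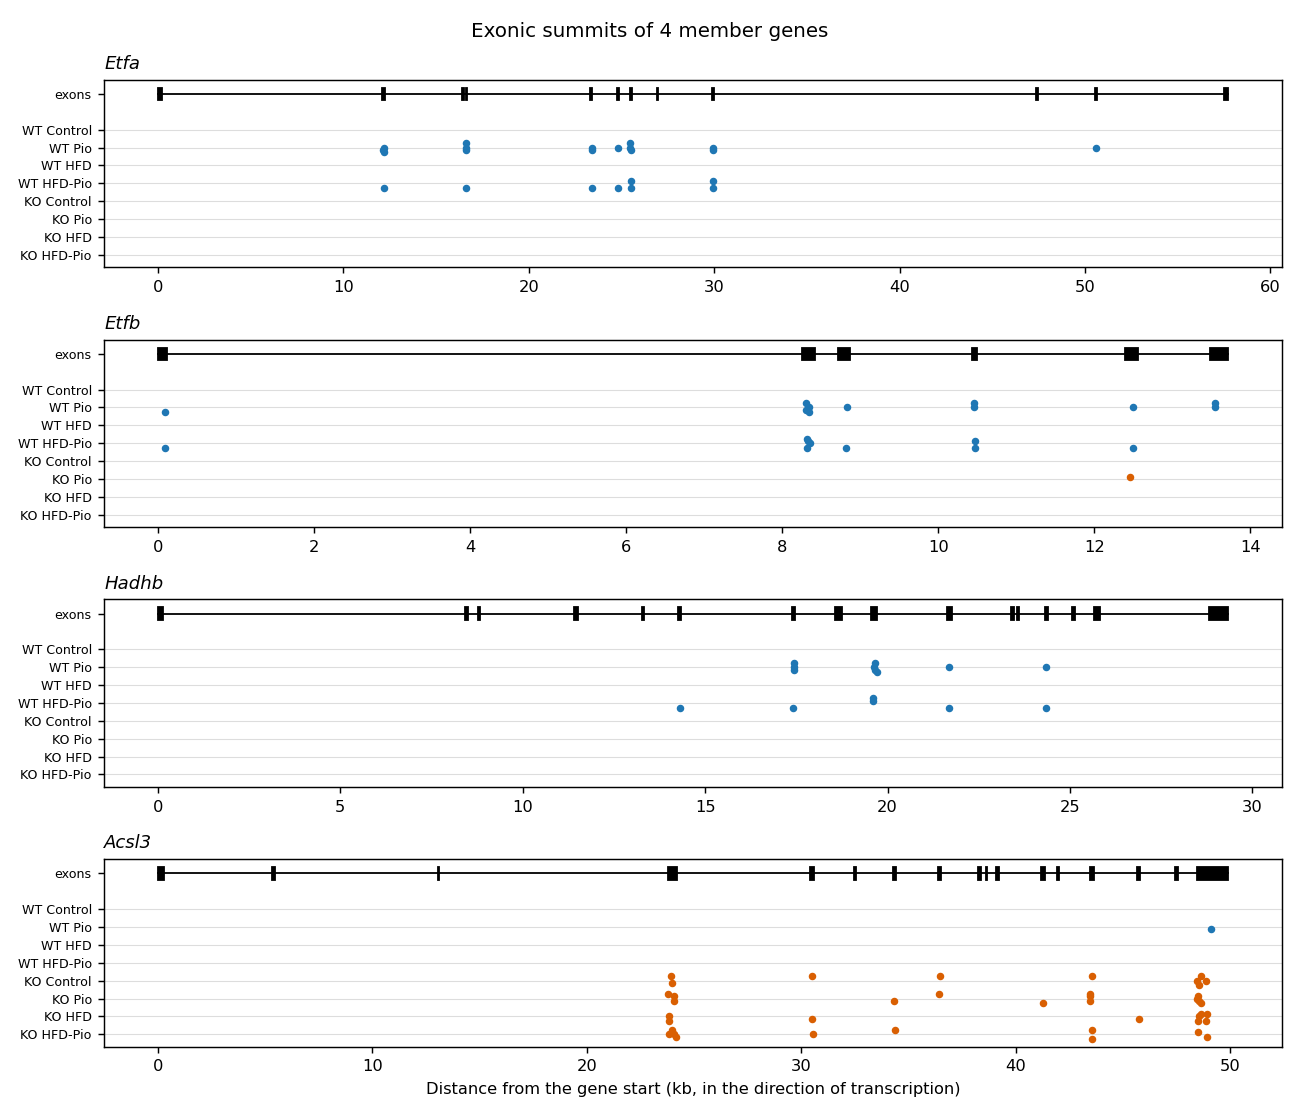
Exonic summits along Etfa, Etfb, Hadhb and Acsl3 (distance from the gene start in kb on the x axis, groups as rows, points set apart by replicate), with the exons of protein-coding transcripts drawn above. At Etfa and Hadhb the summits stand only in the WT Pio and WT HFD-Pio rows, at Etfb 1 stands in KO Pio as well, and at Acsl3 all but 1 stand in the 4 KO rows.

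The mitochondrial trifunctional protein, which carries out the last 3 steps of a round for long chains, also gained exonic peaks at both subunits. Hadha (chr5:30118304-30155162, minus strand), the α subunit, stood at 7.57, 4.28, 8.20, 2.97 and 8.45 in WT Pio livers 1 to 5 and at 7.50, 4.76 and 3.66 in WT HFD-Pio livers 1, 4 and 5. The call in WT Pio liver 4 passed the p cutoff of WT libraries, but its −log10 q of 0.0183 would miss the q cutoff of KO libraries. The same call is among the 8 treated WT livers counted for Hadha with the diets pooled. With that call included, Hadha was the only gene of the list with an exonic peak in all 5 livers of WT Pio. In KO livers it was called in 2 of 5 in KO Control (3.77 and 3.75 in livers 2 and 3), 3 of 5 in KO Pio (2.81, 4.69 and 3.76 in livers 3 to 5) and 3 of 5 in KO HFD (3.80, 4.69 and 4.67 in livers 2 to 4). In KO HFD-Pio it was called in 5 of 5, at 2.79, 3.77, 3.81, 3.80 and 2.85. WT summits lay in 8 of its 20 exons and KO summits in 5, and exon 13 held a summit in 5 WT and 5 KO livers. Of the WT summits 24 of 25 were in coding sequence, whereas 6 of 19 KO summits were in the 3′ UTR.

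Hadhb (chr5:30155248-30184593, plus strand), the β subunit, which starts next to Hadha and is read in the opposite direction, stood at 4.49, 4.68, 9.77 and 4.69 in WT Pio livers 1, 2, 3 and 5 and at 4.69, 4.76 and 3.66 in WT HFD-Pio livers 1, 4 and 5. It had no exonic peak in the 20 KO livers. Its summits lay in 5 of 16 exons, all in coding sequence, and exon 9 held one in 6 of the 7 livers. No exonic summit of either gene lay in exon 1, next to the shared start.

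Echs1 (chr7:140105710-140116476, minus strand), the short-chain enoyl-CoA hydratase, stood at 4.48, 3.73, 6.46 and 11.3 in WT Pio livers 1, 2, 3 and 5. In WT HFD-Pio it stood at 17.8, 4.76 and 4.41 in livers 1, 4 and 5, and 17.8 was the highest exonic value of the whole list. In KO livers it was called without Pio as well, at 3.77, 3.60, 5.23 and 3.78 in KO Control livers 2 to 5 and at 2.82, 4.72 and 3.75 in KO Pio livers 1 to 3. It stood at 2.84, 3.75 and 3.45 in KO HFD livers 1, 3 and 4, and at 3.74 and 4.74 in KO HFD-Pio livers 1 and 3. The KO groups overlapped. WT coding summits fell in exons 2 and 6, and 7 of 15 KO summits fell in the 3′ UTR. Hadh, the hydroxyacyl-CoA dehydrogenase for shorter chains, was called in 3 treated WT livers and 1 KO liver, and the thiolase Acaa2 in 1 and 2.

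Ech1 (chr7:28825217-28832247, plus strand), a dienoyl-CoA isomerase needed for unsaturated chains, had the deepest exonic peaks of the list. It stood at 5.27, 8.96, 15.3 and 13.9 in WT Pio livers 1, 2, 3 and 5 and at 15.5, 6.34, 14.2 and 8.82 in WT HFD-Pio livers 1, 3, 4 and 5, with pileups of 8 to 25 tags. In KO livers it was called only in KO HFD-Pio, at 4.71 and 4.75 in livers 1 and 4. Of 13 WT summits 12 lay in coding sequence, in exons 7 and 8 of 10. It was the only gene of the list gained in WT livers of both diets when peaks were limited to a −log10 q of at least 5, or to the same number in every library.

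The window of Ech1 also holds the end of Hnrnpl, an RNA-binding protein gene that lies upstream. Summits in exons of Hnrnpl occurred in 24 livers (4 WT and 20 KO, fold enrichment 2.81 to 14.2) and were not counted for Ech1. Of the other genes of this step, Decr1 had an exonic peak in 3 treated WT livers, all with the short fragment estimate, and Eci2 in KO Pio liver 4 (6.41) and KO HFD liver 1 (3.78).

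Among the peroxisomal genes, Hsd17b4 (chr18:50128201-50196269, plus strand), which encodes the D-bifunctional protein, was the only one called in more than a few livers. It stood at 3.80, 8.20 and 4.69 in WT Pio livers 1, 3 and 5 and at 4.69 and 4.76 in WT HFD-Pio livers 1 and 4. In KO livers it stood at 3.78, 3.77, 4.69 and 3.78 in KO Control livers 1, 2, 3 and 5 and at 4.70, 2.81, 3.71 and 3.81 in KO Pio livers 1, 3, 4 and 5. In KO HFD livers 1 to 3 it stood at 3.78, 5.76 and 3.40, and in KO HFD-Pio livers 2 to 4 at 5.66, 3.81 and 3.80, so that treated and untreated KO livers overlapped. Ehhadh and Acaa1b had no interval, Pex11a, which promotes division of peroxisomes, was called in 2 KO livers, and the thiolase gene Acaa1a in 2 KO livers and 1 treated WT liver. Acaa1a and Acaa1b are near-identical copies that may share reads, so values at either are uncertain.

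The acyl-CoA dehydrogenases, the enzymes that open each round, had no gain by the criterion of 3 treated livers against 0 untreated. Of other genes, only 6.16% and 3.81% were gained in WT on control diet and HFD. A lack of gain among 4 genes is therefore no result about this step. Acadvl, for very long chains, had an exonic peak in 2 of 5 livers of WT Pio and of WT HFD-Pio and in 1 KO Control liver. Acadm was called in a single treated WT liver, WT HFD-Pio liver 3, and Acads also in 1. Acadl was not called in exons of any WT liver and was called in 2 KO livers.

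The long-chain acyl-CoA synthetases, which activate fatty acids, were called mostly in KO livers. Other genes were also called more often there, on average in 22.0% to 27.2% of cases in the KO groups. In WT Pio and WT HFD-Pio the shares were 8.03% and 6.12%, and in WT Control and WT HFD 0.406% and 0.122%. Acsl3 (chr1:78657825-78707743, plus strand), found on lipid droplets and the endoplasmic reticulum, was called in 4, 5, 4 and 5 of 5 livers of KO Control, KO Pio, KO HFD and KO HFD-Pio. Its values were 4.33, 3.77, 6.57 and 4.72 in KO Control livers 1, 2, 3 and 5, and 4.70, 8.49, 2.81, 5.52 and 3.81 in KO Pio livers 1 to 5. They were 3.78, 5.42, 3.75 and 3.74 in KO HFD livers 1 to 4, and 3.68, 3.77, 3.81, 5.70 and 5.66 in KO HFD-Pio livers 1 to 5. Treated and untreated KO livers overlapped, and a single WT liver, WT Pio liver 2, had an exonic peak (2.81). Exon 3, a coding exon of 418 bp, carried a summit in 10 KO livers, and exon 16, the last exon, in 12.

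Acsl1 (chr8:46471037-46536051, plus strand), the main synthetase of liver, had no exonic peak in 20 WT livers. It stood at 5.66 and 3.50 in KO Control livers 2 and 5 and at 3.74, 6.56 and 4.64 in KO Pio livers 2 to 4. It stood at 3.49, 3.75 and 3.74 in KO HFD livers 1, 3 and 4, and at 3.75, 4.72, 3.81 and 3.80 in KO HFD-Pio livers 1, 2, 3 and 5. Its last exon, which holds the 3′ UTR, carried a summit in 12 of the 12 livers. Acsl4 (chrX:142317993-142390535, minus strand), which prefers arachidonic acid, was called in no WT liver. It stood at 3.75 in KO Control liver 3, at 3.50, 3.75 and 4.64 in KO Pio livers 2 to 4, at 3.78 and 3.75 in KO HFD livers 1 and 3, and at 3.80 in KO HFD-Pio liver 4.

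Acsl5 (chr19:55251938-55297720, plus strand) differed from the other synthetases in being gained in WT HFD-Pio. It stood at 4.69, 3.81 and 3.66 in livers 1, 4 and 5, all with the short fragment estimate, and at 4.56 in WT Pio liver 3. In KO livers it was called in KO Pio liver 3 (3.75) and KO HFD-Pio liver 1 (3.75). Exon 20 of 22 carried a summit in 3 of the 4 WT livers. The gain rested on the smallest number of livers that counts, and the call of WT HFD-Pio liver 5 had a −log10 q of 1.19. Fisher's exact test did not pass Acsl5 in WT HFD-Pio against WT HFD (3 against 0, adjusted p = 0.739).

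**Figure D4:**
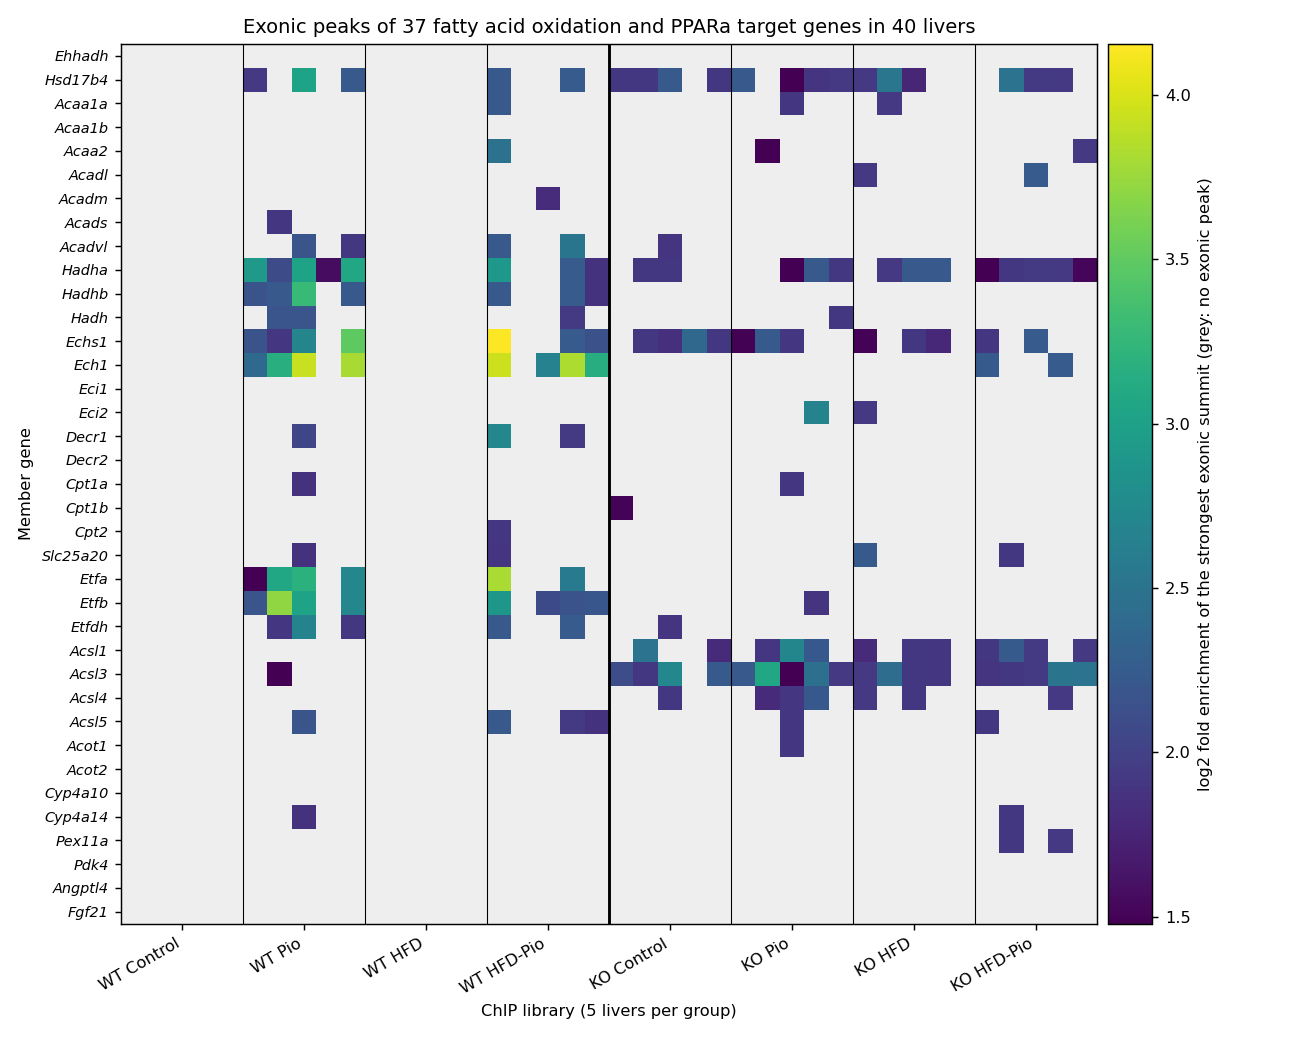
Strongest exonic fold enrichment (log2 scale) of each of the 37 genes in each of the 40 livers, with grey where no exonic peak was called and the livers ordered by group. Hadhb and Etfa have values in treated WT columns alone, and Etfb and Ech1 nearly so. Hadha, Echs1 and Hsd17b4 have values in treated WT and in KO columns, and Acsl1, Acsl4 and all but 1 value of Acsl3 stand in KO columns.

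In the carnitine shuttle, the entry step into mitochondria, none of the 4 genes (Cpt1a, Cpt1b, Cpt2 and Slc25a20) met the criterion for a gain. Of the 4, 3 had an exonic peak in a treated WT liver, in at most 2 of the 10 livers each, and 3 in a KO liver, in at most 2 of the 20. Slc25a20, the carnitine carrier, stood at 3.64 in WT Pio liver 3, 3.68 in WT HFD-Pio liver 1, 4.73 in KO HFD liver 1 and 3.77 in KO HFD-Pio liver 2, and Cpt1a at 3.64 in WT Pio liver 3 and 3.75 in KO Pio liver 3. Other genes had an exonic peak in 8.03% and 6.12% of cases per treated WT liver, so the low counts in WT livers are no result about the shuttle. In KO livers the counts lay below the 22.0% to 27.2% of other genes, as did the shares of the 37 genes together. That difference was not tested. Upstream of Cpt1b, summits lay in exons of its neighbour Chkb in KO livers, and in 3 KO livers outside every exon (KO Control livers 2 and 5 at 2.80 and 3.66, and KO Pio liver 3 at 2.81). Among thioesterases and omega-hydroxylases (Acot1, Acot2, Cyp4a10 and Cyp4a14), which have near-identical copies that may share reads, 1 gene had an exonic peak in 1 treated WT liver and 2 in 1 KO liver each. Pdk4, which restrains glucose oxidation, and the hormone genes Angptl4 and Fgf21, all classical targets of PPARα, had no interval in any of the 40 libraries. An interval in at least 1 library was found at 81.08% of the 37 genes and at 81.8% of other genes. These absences are therefore no result about targets of PPARα.

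Position within the gene was common to these peaks. Of 567 summits of intervals that overlapped the windows, 306 (53.97%) lay in exons of the gene, 177 (31.22%) in exons of another gene or pseudogene, 51 in introns, 18 upstream, 3 downstream and 12 beyond the window. With the exons of other genes and pseudogenes included, 82 were intronic, 159 upstream and 8 downstream. Exonic summits were 93 of 122 in WT Pio and 60 of 82 in WT HFD-Pio, 0 of 9 in WT Control and 0 of 2 in WT HFD, and between 40.79% and 45.74% in the KO groups. In WT livers 95.4% of the 153 exonic summits of these genes lay in coding sequence, compared with 74.1% for other genes, although coding bases made up 37.02% and 37.5% of exon bases. In the 6 libraries with the short fragment estimate the shares were 97.8% of 137 summits and 75.2%. In the other treated WT livers they were closer, at 75% of 16 summits and 69.7%. In KO livers the shares were 66.01% of 153 and 54.3%, and 30.72% of the summits of these genes were in a 3′ UTR.

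Width differed between the libraries in the same way for these and for other genes. In the 6 libraries with the short estimate, 92.7% of exonic intervals of the 37 genes lay wholly inside the exon, with a median width of 53 bp, compared with 91.1% and 59 bp for other genes. In the other treated WT livers the values were 31.2% and 230 bp (16 summits), compared with 41.8% and 292 bp. In KO livers they were 54.9% and 161 bp, compared with 61.5% and 200 bp. The median fold enrichment of exonic summits was 4.60 in WT livers (4.55 for other genes) and 3.77 in KO livers (4.61), and the median pileup was 4 and 3 tags, so a typical call rested on very few tags.

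**Figure D5:**
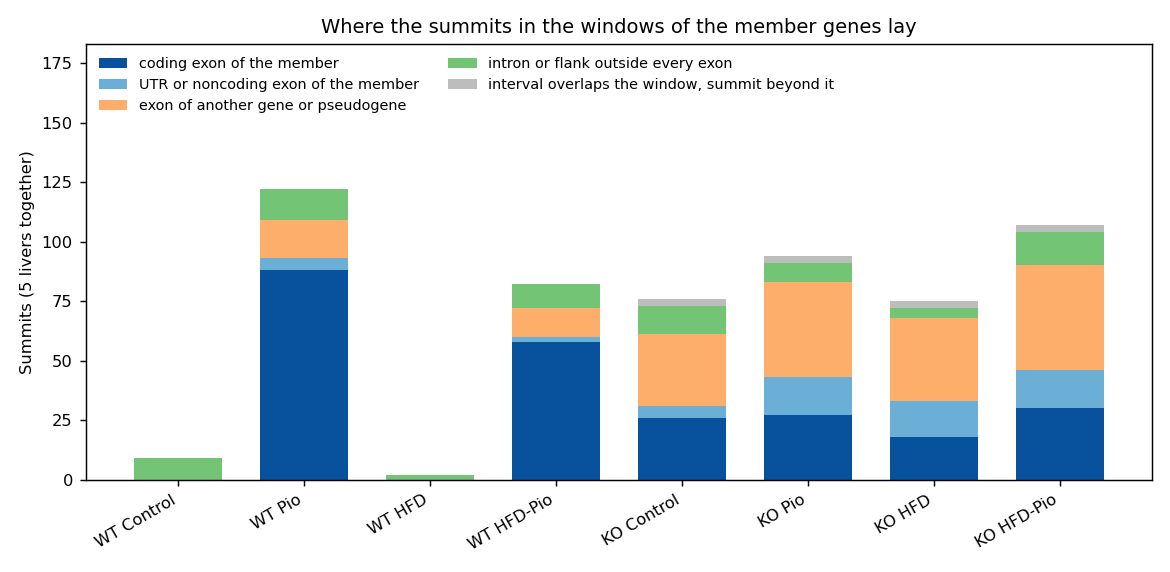
Number of summits in the windows of the 37 genes by group, stacked by place: coding exon of the gene, UTR or other exon of the gene, exon of another gene or pseudogene, intron or flank outside exons, and beyond the window. Exons of the gene hold 93 of 122 summits in WT Pio and 60 of 82 in WT HFD-Pio, and WT Control and WT HFD hold 9 and 2 summits, none in exons.

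Outside exons, few places recurred. Merged over livers, the windows held 109 exonic sites and 63 sites outside exons, and 56 of the 63 were called in 1 liver. Summits in an intron of Hsd17b4 that lay on the pseudogene Cd63-ps were kept apart. They occurred in 5 of 5 WT Pio, 4 of 5 WT HFD-Pio, 0 of 10 untreated WT, 3 of 5 KO Pio and 2 of 5 KO HFD livers, and reached 16.7 in WT Pio liver 1. Of 43 sites called in at least 3 livers, 41 were exonic: 18 in WT livers only, 13 in KO livers only and 10 in both. The 2 others were intronic. The first, in Hsd17b4 0.699 kb from its start, was called in WT Pio liver 1 (4.49), WT HFD liver 2 (6.94) and WT HFD-Pio liver 1 (4.60), with and without Pio. The second, in Acadl (chr1:66830839-66863277, minus strand) 13.67 kb from its start, was called in WT Pio liver 3 (8.20) and WT HFD-Pio livers 1 and 4 (9.38 and 3.74), beside the processed pseudogene Gm15793, whose exon had summits in 5 treated WT livers (3.74 to 7.29).

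Per liver, 0 to 6 of the 37 genes had a peak outside exons. The numbers were 0, 6, 0, 1 and 0 in WT Control and 4, 1, 5, 0 and 0 in WT Pio, and the groups overlapped. In WT HFD they were 0, 1, 0, 0 and 1, and in WT HFD-Pio 4, 0, 0, 5 and 1, again with overlap. In these 4 groups the mean share of the 37 genes was 3.78%, 5.41%, 1.08% and 5.41%, below the 6.81%, 10.4%, 2.11% and 9.54% of other genes. In KO livers the numbers were 1, 3, 4, 0 and 4 in Control, 0, 1, 2, 3 and 1 in Pio, 0, 2, 1, 1 and 0 in HFD, and 6, 1, 2, 2 and 1 in HFD-Pio. The mean shares there were 6.49%, 3.78%, 2.16% and 6.49%, against 8.752%, 10.3%, 8.651% and 10.6% of other genes. The 18 upstream summits lay in 10 genes, between -4.97 and -0.883 kb from the start, at 2.73 to 9.30. Acsl1 and Acsl3 were among the genes most often called outside exons. The summits of Acsl1 were all intronic. They stood at 5.96 in WT Control liver 2, 2.75 in WT HFD-Pio liver 5, 4.72 and 3.75 in KO Control livers 1 and 3, 3.71 in KO Pio liver 4 and 2.82 in KO HFD-Pio liver 1. The strongest value of Acsl3 outside exons was 4.56 in WT Pio liver 3, 4.11 in WT HFD liver 5, 2.82 and 3.78 in KO Control livers 3 and 5, 2.81 and 3.71 in KO Pio livers 3 and 4, and 3.80 in KO HFD-Pio liver 4. Of these Acsl3 values, that of WT HFD liver 5 was upstream and the others were intronic. None of these sites was shared between livers. Besides the recurrent sites, Hsd17b4 was called in WT Pio livers 1 and 3 (5.32 and 3.64), WT HFD-Pio liver 4 (2.86), KO Control liver 2 (3.75) and KO HFD-Pio livers 2 and 4 (4.72 and 2.85), and Acadl in WT Pio liver 3 (2.73), KO HFD livers 3 and 4 (2.82 and 3.74) and KO HFD-Pio livers 1 and 5 (3.68 and 3.72).

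DR1 elements were looked for because RXR binds them with PPARα and PPARγ. The letters AGGTCANAGGTCA were searched on both strands, with up to 2 mismatches over the 12 letters compared, in promoters taken from RefSeq (GRCm38.p6, the mm10 assembly, 250 bases before to 50 after the start). A match was found in 3 of the 30 promoters of the list that could be matched (10%) and in 3.94% of 16492 other promoters. The 3 are shown because they are the closest to a DR1 near the starts of these genes, with the 13 matched bases in capitals and 2 mismatches in each.
Echs1 promoter at chr7:140116483-140116512, minus strand: gcccgctcAGGTCACGGGTCCaccccttaa
Etfa promoter at chr9:55512299-55512328, minus strand: gcacacccTTACCTTTGCCCTactcccaag
Slc25a20 promoter at chr9:108662134-108662163, plus strand: ctgaatgtAGGTGAAAGGTCGgcggagccg
No library had an interval over any of the 3, in either genotype.

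The same letters were searched within 100 bp of each summit. Each distinct summit position was counted once, so a site called in several livers could count several times. A match was found for 7 of 146 exonic summits of these genes in WT livers (4.79%, against 2.07% for other genes) and for 2 of 152 in KO livers (1.32%, against 2.69%). These summits are therefore not independent sites. Outside exons it was found for 0 of 34 in WT livers (against 1.86% for other genes) and 1 of 38 in KO livers (2.63%, against 3.07%). Of the 38 recurrent sites that were searched, 2 held a match, both in Etfb. The site in Etfb exon 4, called in 4 treated WT livers at 3.81 to 7.29, held the match nearest to its summit (2 bp away).
Etfb exon 4 site at chr7:43454536-43454565, plus strand: aaccagacAGGTCAGATGACAgctggactt
The other recurrent sites had 3 to 5 mismatches in their best place, including that of Ech1 exon 8, the site with the deepest pileup, with 5 mismatches.
Ech1 exon 8 site at chr7:28831413-28831442, plus strand: tgcccgcaAGATGATGGCTGAcgaggccct
A match of letters is a description of the sequence and no measure of binding.

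The comparison of genotypes rests on libraries that differed in depth and cutoff. By the rule for gains, WT Pio against KO Pio had 4 genes higher in WT (Hadhb, Ech1, Etfa and Etfdh, beside 1.1% of other genes) and 2 lower (Acsl1 and Acsl4, beside 16.4%). WT HFD-Pio against KO HFD-Pio had 2 higher (Hadhb and Etfb, beside 0.777%) and 2 lower (Acsl1 and Acsl3, beside 15.9%). WT Control against KO Control had 0 higher (beside 0.0229%) and 3 lower (Hsd17b4, Echs1 and Acsl3, beside 20.6%). WT HFD against KO HFD had 0 higher (beside 0.0274%) and 5 lower (Hsd17b4, Hadha, Echs1, Acsl1 and Acsl3, beside 22.7%). Fisher's exact test on 5 against 5 treated livers could test 23 genes of the list on each diet. It passed 0 as higher in WT on control diet (beside 0.328% of other genes tested) and 0 on HFD (beside 0.206%), where Hadhb had adjusted p-values of 0.135 and 0.364, Etfb 0.432 and 0.144, and Etfa 0.135 and 0.711. As lower in WT it passed 0 on control diet (beside 21%) and 1 on HFD (beside 19.9%), Acsl3 (0 against 5, adjusted p = 0.0395 by Fisher's exact test). With both diets together, again a comparison added after the data had been seen, 27 genes of the list were tested. Fisher's exact test called Hadhb (7 of 10 WT against 0 of 10 KO livers, adjusted p = 0.0102), Etfb (8 against 1, adjusted p = 0.0173) and Etfa (6 against 0, adjusted p = 0.0299) more often in treated WT livers, beside 1.48% of other genes tested. It called Acsl3 (1 against 10, adjusted p = 0.000598) and Acsl1 (0 against 7, adjusted p = 0.0102) more often in treated KO livers, beside 34.8% of other genes. Ech1 (8 against 2, adjusted p = 0.0612) did not pass Fisher's exact test. Some WT calls of Hadhb, Etfb and Etfa passed the p cutoff of WT libraries, but would miss the q cutoff of KO libraries. They were Etfa in WT Pio liver 1 (−log10 q of 0.364), Hadhb in WT HFD-Pio liver 5 (1.19) and Etfb in WT HFD-Pio liver 3 (1.12).

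HFD against control diet gained or lost 0 of the 37 genes in each of its 4 comparisons. Of other genes, 0% were gained and 0% lost in WT without Pio, 0.0274% and 0.16% in WT on Pio, 0.407% and 0.165% in KO without Pio, and 0.187% and 0.626% in KO on Pio. Fisher's exact test passed 0 genes in each, and 2, 74, 29 and 0 genes reached an unadjusted p under 0.05 in WT on Pio, KO on Pio, KO without Pio and WT without Pio, none of them from the list.

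A list of 44 further genes of fatty acid oxidation and PPARα signalling was counted in the same way. In WT Pio against WT Control 5 of 44 were gained (11.36%, beside 6.16% of the 21874 genes outside the list of 37): Fabp1, Acot13, Ucp2, Txnip and Ppargc1a. In WT HFD-Pio against WT HFD 1 was gained (Fabp1, 2.273%, beside 3.81%), and in KO Pio against KO Control 4 (Acad9, Ivd, Scp2 and Me1, 9.091%, beside 0.933%). In KO HFD-Pio against KO HFD 0 were gained (beside 0.384%) and 1 was lost (beside 0.251%). Fabp1, the fatty acid binding protein of liver and intestine, was called in 8 of 10 treated and 0 of 10 untreated WT livers (adjusted p = 0.0110 by Fisher's exact test over all genes, both diets together). Ucp2, a mitochondrial carrier, and Txnip, an inhibitor of thioredoxin, were each called in 6 against 0 and did not pass (adjusted p = 0.0614 by Fisher's exact test).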

How the data were processed

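ChIP-Seq peak lists of 40 livers were used, with groups taken from the sample labels. Reads were aligned by the authors to mm10 (Novoalign), and each ChIP library was searched for peaks against its input with MACS2 (2.1.1.20160309). Peaks were kept at a p-value cutoff of 0.001 in WT and a q-value cutoff of 0.05 in KO libraries, per the file headers, which also gave tags and fragment estimates. Strength is the deposited fold enrichment, a ratio of ChIP to expected input tags. The deposited pileup is a signal in tags, -log10 p and -log10 q are as deposited by the authors, and the deposited score, meant for display, was not used. Both lists of each library held the same peaks (40 of 40) and no 2 libraries shared more than 0.557% of intervals. Peak lists hold no reads, so no counting interval was computed.

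Windows ran from 5 kb upstream to 1 kb downstream of each GENCODE M21 gene, so 21 of the 37 overlapped the window of another coding gene. Summits in an exon of any gene or pseudogene were kept apart from those outside exons. Gains needed 3 or more of 5 livers in one group and 0 in the other. Two-sided Fisher's exact tests on numbers of livers and limma with a trend on log2 fold enrichment, centred on library medians and run where at least 10 genes had a peak in all livers, were adjusted by Benjamini-Hochberg over all genes tested at 0.05. In WT on HFD too few genes qualified for limma. The scripts were tested on simulated data. Tests were run in Python 3.11.15 (scipy 1.17.1, numpy 2.4.6, pandas 2.3.3) and R 4.3.3 (limma 3.58.1), and plots were drawn with matplotlib 3.10.9.

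Values in every liver are given for genes with an exonic peak in at least 3 of 5 livers of a WT group, for the 8 genes called in most KO livers (ties by mean fold enrichment), and for the 4 genes most often called outside exons. Of the further genes of the pathway, 2 are not reported here. The genes, the lists and this rule were chosen with earlier results of these data known. Alternatives were other thresholds, transcripts, windows and numbers of peaks, each liver left out in turn, and the short-fragment libraries left out.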

Additional observations from a re-analysis of the deposited data

Results flagged for a closer look

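In 8 of 33 groups of 4 or 5 livers examined, 1 liver stood apart from the others by Dixon's criterion. Chance meets it in about 1 in 20 groups where values are continuous. The values here were small counts, or fold enrichments that follow pileups of a few tags, so the 8 groups cannot be set against that rate. WT Control liver 2 had a peak outside exons at 6 of the 37 genes, where the other 4 livers had 0 or 1, and that library held 13037 peaks. KO HFD-Pio liver 1 likewise had 6, against 1 or 2 in the others. Among the strongest exonic fold enrichments, Hadhb stood at 9.77 in WT Pio liver 3 and Etfb at 7.43 in WT HFD-Pio liver 1, both in libraries with the short fragment estimate. In KO livers, Hsd17b4 stood at 4.69 in KO Control liver 3, Echs1 at 5.23 in KO Control liver 4, Acsl1 at 4.72 in KO HFD-Pio liver 2 and Acsl3 at 5.42 in KO HFD liver 2. Each of these is the highest value of its group.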

How the results depend on the processing

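The number of genes gained in exons depended on the peak cutoff. In WT Pio against WT Control it was 4 at a −log10 q of at least 5 (Hadha, Ech1, Etfa and Etfb) and 1 with the same number of peaks in every library (Ech1), and in WT HFD-Pio against WT HFD it was 1, 2, 1 and 2 at that cutoff, at q of at most 0.05, with equal numbers of peaks and when 4 of 5 livers were needed. In KO Pio it was 1 (Acsl4) when 1 untreated liver was allowed. With both diets together Fisher's exact test passed 368 genes at a −log10 q of at least 5 and 445 at q of at most 0.05, with Ech1 in both and Etfb in the second. It passed 686 genes with all livers and 64 without the short-fragment libraries. The comparisons with both diets together were chosen after seeing the data. limma passed 2 genes in WT on control diet without centring. On HFD in WT it was not run, since only 6 genes had a peak in all 10 livers, and it passed 1 of 12 genes called in at least 4 of 5 livers of each group. The mean difference per liver was 3.6 and 2 genes with Pio in WT at a −log10 q of at least 5, and -0.4 between WT and KO without Pio on either diet. Without the 6 short-fragment libraries it was 4 and 1.5 genes with Pio in WT, and the differences WT Pio minus KO Pio and WT HFD-Pio minus KO HFD-Pio turned from 2.6 and 1.4 to -1.8 and -4.3. The cause was not tested.

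Leaving out 1 liver at a time gave 6 to 8 gained genes in WT Pio, 2 to 6 in WT HFD-Pio (2 without liver 1, 4 or 5 of that group), 0 to 1 in KO Pio (1 without KO Control liver 3) and 0 to 0 elsewhere, exonic or not. Fisher's exact test then passed 0 to 877 genes in WT Pio (877 without WT Pio liver 4, with Hadha, Hadhb, Echs1, Ech1, Etfa and Etfb) and 0 in the other Pio comparisons. With both diets together it passed 686 to 1288, and 1211 to 1288, with 8 of the 37 genes, without WT Pio liver 4 or WT HFD-Pio liver 2, 3 or 5. limma passed 0 to 1 in WT Pio and KO Pio and 0 to 0 in KO HFD-Pio. Differences per liver ran from 6.75 to 10.25 and from 5.25 to 9 with Pio in WT, and from 0.75 to 2.55 and from 0.3 to 2.3 in KO. The diet differences ran from 0 to 0, -3.15 to 0.6, -0.5 to 1.5 and -0.7 to 1.05, and the genotype differences from -4.75 to -3.25, 0.95 to 4.45, -5.5 to -3.5 and -0.55 to 3.2. Reversed were WT HFD-Pio minus WT Pio without WT HFD-Pio liver 2 (0.6) or WT Pio liver 3 (0.45), KO HFD minus KO Control without KO HFD liver 1 (-0.5) or without KO Control liver 4 (-0.35), and WT HFD-Pio minus KO HFD-Pio without WT HFD-Pio liver 1 (-0.55).

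Replicate numbers shared across groups did not pair the livers: deviations of same-numbered livers correlated at -0.0268 to 0.0987. With a replicate block, the exact sign test on 5 pairs cannot go below p = 0.0625 and so its 0 genes say nothing. With the block, limma passed 0 genes in the 3 comparisons in which it was run, as without it, and the mean of same-numbered differences was again 8.4 and 7.2 in WT.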
